A study of Mus musculus with 6 samples.

Results

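Chemokine receptors of cultured mouse microglia are described here through 8 genes, Ccr1, Ccr2, Ccr3, Ccr7, Ccrl2, Cxcr3, Cxcr4 and Ackr3. They were taken by gene symbol from the 41079 genes listed in the deposited tables, and the fractalkine receptor Cx3cr1 was left out of the 8. RNA was sequenced in 6 libraries of primary microglia from C57Bl/6N mice aged 1 to 3 days, 3 of control cultures and 3 of cultures under optimized conditions. In both groups, cells of several neonatal brains were pooled per flask, fed with L-929 conditioned medium, and microglia were then shaken off the mixed culture. Control cultures were kept in serum-free DMEM/F12. Optimized cultures received human TGF-β1, human IL-34 and CX3CL1, each at 100 ng/mL. According to the study's methods, these cultures also had cholesterol and insulin-transferrin-selenium in the medium and collagen IV on the plastic, which the labels do not name. All additions were given together, so the effect of a single agent on a receptor cannot be told apart from that of the others. CX3CL1 is itself a chemokine, and its receptor is Cx3cr1. The comparison asked whether the receptor transcripts differed between the culture conditions.

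Chemokine receptors are membrane proteins with 7 transmembrane helices that guide migrating cells along gradients of small secreted proteins, the chemokines. Most of them signal through Gi proteins, and are then switched off by G protein-coupled receptor kinases and arrestins. Atypical receptors such as Ackr3 and Ccrl2 bind their ligands without classical G protein signalling, and they take up the ligand or present it to other cells. Microglia in the brain are known for high Cx3cr1, whereas Ccr2 marks infiltrating monocytes and Ccr7 marks migrating dendritic cells and lymphocytes.

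The libraries held 20628148 to 27261839 counts, so that a count of 3 corresponded to 0.110 to 0.145 CPM (read counts scaled to depth with edgeR's TMM factors). All 7 microglia markers examined were detected in every library, among them Csf1r, Aif1 and Trem2. Their levels were not stable between the conditions, with 4 higher, 2 lower and 1 not called by edgeR. Csf1r and Aif1 fell, with log2 fold changes of -0.39 and -0.45. Trem2, Itgam, P2ry12 and Tmem119 rose, from a log2 fold change of 0.73 for Trem2 to 3.94 for Tmem119. C1qa was not called. Defining genes of T cells (Cd3e, Cd3g, Cd8a), granulocytes (Ly6g, S100a9, Prg2) and dendritic cells (Flt3, Cd209a) had 0 counts in all 6 libraries. Markers of other cells of the culture were also detected and in part moved with the condition. The 5 oligodendrocyte genes summed to 125 to 140 CPM in control and 156 to 190 CPM in optimized libraries, and the 5 astrocyte genes to 27.1 to 30.0 and 18.3 to 20.8 CPM. Of the astrocyte genes, Aldh1l1 fell (log2 fold change -1.83) and the other 4 were not called, with Gja1 at a log2 fold change of 0.49 and Gfap at 0.16. The 5 genes of border-associated macrophages summed to 469 to 516 and 245 to 350 CPM, with Mrc1 lower and Pf4 higher. Of the dendritic cell list, Zbtb46 fell and the 5 genes summed to 8.16 to 8.61 CPM in control and 4.50 to 5.49 CPM in optimized libraries. S100a8, the 1 neutrophil gene with enough counts, rose from 2 to 6 counts to 30 to 72. Nefl, of the 5 neuronal genes, rose from 4 to 7 counts to 19 to 35. Of the other neuronal genes, Map2, Rbfox3 and Tubb3 were not called, and Snap25 had at most 1 count per library. The 3 B cell genes summed to at most 0.331 CPM. The part of these cells in the receptor results was not tested. Optimized library 1 stood apart in Ltf, a neighbour of Ccrl2 on chromosome 9 that encodes the iron-binding protein lactotransferrin, with 1534 counts there and 1 to 3 in each other library.

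Of the 8 receptors, 1 rose under the optimized conditions, 2 fell, 4 did not pass the test and 1 had no count to test. Cxcr4, the receptor for Cxcl12, rose 2.68-fold. Ccr3, a receptor for eotaxins, fell from 48 to 82 counts per control library to 0 in every optimized library, and Ccrl2, an atypical receptor that binds chemerin, fell to 0.595 times its control level. Ccr1, Ccr2, Cxcr3 and Ackr3 had overlapping libraries. The test was edgeR's quasi-likelihood test, Benjamini-Hochberg adjusted over 14618 genes, with a threshold of 0.05. By this test 14.7% of all genes tested were higher, 15.2% were lower and 29.8% changed in either direction. The libraries of the 2 groups did not overlap in 43.9% of the genes tested and in 3 of the 7 receptors tested, the same 3 that were called. Called were thus 3 of the 7 receptors tested, against 29.8% of all genes. So few receptors cannot tell these shares apart, and no statement is made about the 8 as a group. The median log2 fold change was 0.23 over the 7 receptors, also with Ccr3 at its bound, and 0.01 over all genes tested. In RNA from whole cultures, fewer cells of a type and less RNA per cell cannot be told apart.

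**Figure D1:**
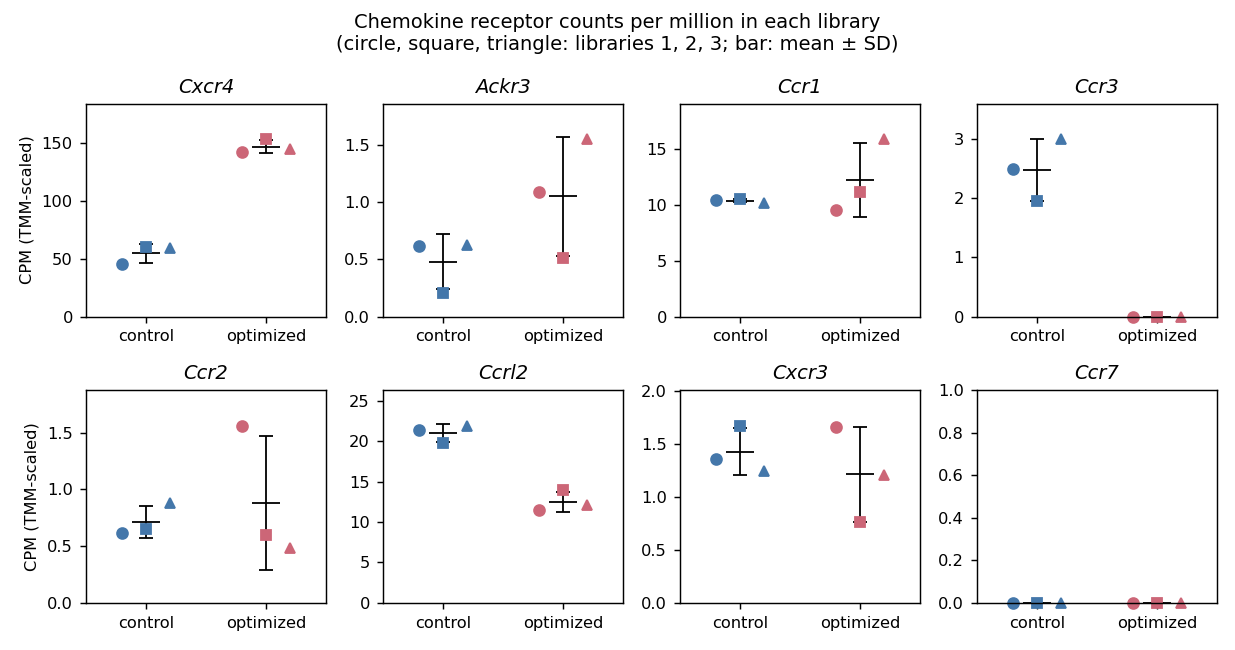
CPM (TMM-scaled) of the 8 chemokine receptors in the 3 control and 3 optimized libraries, with 1 symbol per library and a bar for the mean ± SD. Cxcr4 lay higher and Ccr3 and Ccrl2 lower in every optimized library, Ccr7 was at 0 in all 6, and the groups overlapped in the other 4.

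Cxcr4 is the signalling receptor for Cxcl12, a chemokine of stromal cells and of the developing brain. Control libraries 1 to 3 gave 1041, 1468 and 1618 Cxcr4 counts, against 3016, 3611 and 2995 under the optimized conditions. Every optimized library thus lay above every control library, and control library 1 was the lowest. In CPM, Cxcr4 went from 54.9 ± 8.11 to 147 ± 5.81 (SD, n = 3 each). The log2 fold change was 1.42 (standard error 0.11, edgeR adjusted p-value 9.88e-06), at rank 542 from the highest of the genes tested. Cxcr4 lies on chromosome 1 of GRCm39, from 128515936 to 128520044 on the minus strand, and none of its exons overlaps an exon of another listed gene.

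Ackr3, formerly Cxcr7, binds the same ligand as Cxcr4 and removes it by uptake. Its counts were low, with 14, 5 and 17 in control libraries 1 to 3 against 23, 12 and 32 under the optimized conditions. The groups overlapped, since optimized library 2 lay below 2 of the 3 control libraries in CPM. The mean was 0.479 ± 0.239 CPM in control cultures against 1.05 ± 0.520 CPM in optimized ones (SD, n = 3 each). The log2 fold change of 1.11 (standard error 0.52, 95% interval -0.06 to 2.27) had an edgeR adjusted p-value of 0.146. The interval held both no change and a change larger than that of Cxcr4. The library with most Ackr3, optimized library 3, also held the most counts of Col1a1, a fibroblast collagen (651, against 188 to 271 in the others). The list of 7 fibroblast and vascular genes summed to 22.2 to 28.2 CPM in control and 22.6 to 80.8 CPM in optimized libraries, with 0 of 6 tested genes called by edgeR and 1 at an unadjusted p under 0.05. Its part in Ackr3 was not tested. Without that library, the log2 fold change of Ackr3 was 0.72 (edgeR adjusted p-value 0.441). Leaving out control library 2 gave 0.75 (adjusted p-value 0.366), and leaving out optimized library 2 gave 1.43 (adjusted p-value 0.0527). Optimized library 1, with 246 Col1a1 counts, had 1.09 CPM of Ackr3, against at most 0.622 CPM in a control library. The ligand Cxcl12 had 16 to 27 counts in control and 18 to 46 in optimized libraries, again with the highest count in optimized library 3, and was not called (log2 fold change 0.65, adjusted p-value 0.326). Ackr3 lies on chromosome 1 from 90131689 to 90144473.

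Within a library, the ratio of 2 receptors does not depend on how libraries are scaled. The log2 ratio of Cxcr4 to Ackr3 counts was 6.92 ± 1.00 in control and 7.23 ± 0.85 in optimized libraries (SD, n = 3 each). The difference of 0.32 was smaller than the spread between libraries (two-sided exact permutation p = 0.6, adjusted over 3 ratios 0.8). With 3 libraries against 3, the smallest p this test allows is 0.1. This p could not fall under 0.05, so no statement is made on whether Cxcr4 and Ackr3 changed by different amounts.

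Ccr3 had the largest fall of the 8. In eosinophils and some T cells, its protein is the receptor for the eotaxins Ccl11 and Ccl24, and it also binds Ccl5 and Ccl7. Control libraries 1 to 3 gave 57, 48 and 82 Ccr3 counts, and the optimized libraries gave 0, 0 and 0. The control mean was 2.48 ± 0.522 CPM (SD, n = 3). Against the floor of 3 counts per library, Ccr3 was at least 18.0-fold lower under the optimized conditions. The edgeR adjusted p-value was 5.97e-05. Among all 41079 listed genes, only Ccr3 and Adgre4, an adhesion receptor of macrophages, had 0 counts in every optimized library and at least 48 in every control library. With a minimum of 10 counts in every control library there were 6 such genes, and in the opposite direction 3. Since these counts were looked up after Ccr3 had been seen, they are a description.

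Eosinophil and mast cell genes were examined beside Ccr3. Prg2 and Mcpt4 had 0 counts in all libraries, Epx had 1 count in control library 1 and 0 elsewhere, and Cpa3 had 2, 0 and 1 counts in control libraries 1 to 3 and 0 in every optimized library. Siglecf, a sialic acid receptor of mouse eosinophils and of some macrophages, moved in the opposite direction, from 2 to 10 counts in control to 156 to 179 counts in optimized libraries. The list of 5 eosinophil and mast cell genes summed to 0.0816 to 0.403 CPM in control and 7.55 to 8.10 CPM in optimized libraries, nearly all of it Siglecf. The part of such cells in the Ccr3 counts was not tested.

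Because Cxcr4 and Ccr3 had the largest changes of opposite sign, their promoters are shown, as the 250 bases before the start of the principal transcript in GRCm39. In Ccr3, the capitals mark the 1 match found to the AP-1 motif TGACTCA, read on the other strand, at 145 to 139 bases before the start.
Ccr3, chr9:123821759-123822008, plus strand: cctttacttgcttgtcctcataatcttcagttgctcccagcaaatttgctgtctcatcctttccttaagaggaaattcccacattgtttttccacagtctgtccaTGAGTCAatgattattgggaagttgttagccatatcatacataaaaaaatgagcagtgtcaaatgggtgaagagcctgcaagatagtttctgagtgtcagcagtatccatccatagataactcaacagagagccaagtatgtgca
Cxcr4, chr1:128520045-128520294, minus strand: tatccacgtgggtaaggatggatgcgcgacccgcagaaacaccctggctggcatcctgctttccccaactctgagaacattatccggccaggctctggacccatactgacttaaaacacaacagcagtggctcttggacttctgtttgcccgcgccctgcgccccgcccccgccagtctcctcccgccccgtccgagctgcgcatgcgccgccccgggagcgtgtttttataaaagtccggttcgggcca
Both strands were searched for AP-1, for a SMAD palindrome (GTCTAGAC), for PU.1 (GAGGAAGT) and for an NF-kappaB site (GGACTTTCC). The Cxcr4 promoter held none of these letters. Among 12343 promoters of the same length, AP-1 was found in 3.16%, SMAD in 0.267%, PU.1 in 2.2% and NF-kappaB in 0.348%. A single match among the 8 promoters is a description of sequence and no binding site.

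Ccr1 and Ccr3 share ligands, among them Ccl5 and Ccl7, and lie 59.8 kb apart, counted from the lower coordinate of each gene, in a cluster on chromosome 9 that also holds Ccr1l1 and Ccr2. Ccr1 guides monocytes, macrophages and neutrophils and binds Ccl3, Ccl5 and, in the mouse, Ccl6 and Ccl9. Its counts were 239, 259 and 279 in control libraries 1 to 3 against 201, 263 and 329 under the optimized conditions. The optimized libraries lay on both sides of the control libraries. In CPM, Ccr1 had 10.4 ± 0.179 in control against 12.2 ± 3.32 in optimized cultures (SD, n = 3 each). The log2 fold change was 0.23 (standard error 0.18, 95% interval -0.17 to 0.63, edgeR adjusted p-value 0.38). The interval excluded a change as large as that of Ccrl2 or of Cxcr4 in either direction. Ccr1 was highest in optimized library 3, the one with the high fibroblast genes, and lowest in optimized library 1. Without optimized library 3 the log2 fold change was -0.01 (adjusted p-value 0.986). Without optimized library 1 it was 0.38 (adjusted p-value 0.0578). The part of fibroblasts in Ccr1 was not tested. The log2 ratio of Ccr1 to Ccr3 counts, with 0.5 added to each count, was 2.08 ± 0.33 in control and 9.02 ± 0.36 in optimized libraries (SD, n = 3 each). This difference of 6.94 depends on the added value and had the smallest two-sided exact permutation p possible, 0.1 (0.3 adjusted over 3 ratios).

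Ccr2 is the receptor for Ccl2, Ccl7 and Ccl12, which draws monocytes out of the bone marrow. Its counts were 14, 16 and 24 in control libraries 1 to 3 against 33, 14 and 10 under the optimized conditions. Optimized library 1 was the highest of all, and the other optimized libraries were the lowest in CPM. The mean was 0.714 ± 0.144 CPM in control cultures against 0.881 ± 0.593 CPM in optimized ones (SD, n = 3 each). The log2 fold change of 0.29 had a standard error of 0.47 and a 95% interval of -0.77 to 1.35 (edgeR adjusted p-value 0.705). Without optimized library 1 the log2 fold change turned to -0.40 (adjusted p-value 0.54). In the same library Plac8, a gene of monocytes and other leukocytes, had 54 counts, against 0 or 1 in each other library. Of the other monocyte genes, Chil3 had 0 counts in all libraries, Ly6c2 had 0 to 4 and Vcan had 52 to 112. The list of 4 monocyte genes summed to 2.27 to 3.81 CPM in control and 2.94 to 5.73 CPM in optimized libraries, and its part in Ccr2 was not tested. The log2 ratio of Ccr2 to Ccr1 counts was -3.84 ± 0.29 in control and -3.91 ± 1.21 in optimized libraries (SD, n = 3 each, two-sided exact permutation p = 0.8, adjusted 0.8).

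Ccr1l1, a close relative of Ccr1 whose gene lies between Ccr1 and Ccr3, gave 1, 10 and 8 counts in control libraries 1 to 3, and 0 in every optimized library, too few to pass the filter on low counts. Without that filter Ccr1l1 was called lower (edgeR adjusted p-value 0.0237). Xcr1, on the other side of Ccr1, had 2 to 11 counts per library. Among Ccr1, Ccr3 and Ccr2, which lie side by side with Ccr1l1, only Ccr3 thus passed the test with the filter.

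**Figure D2:**
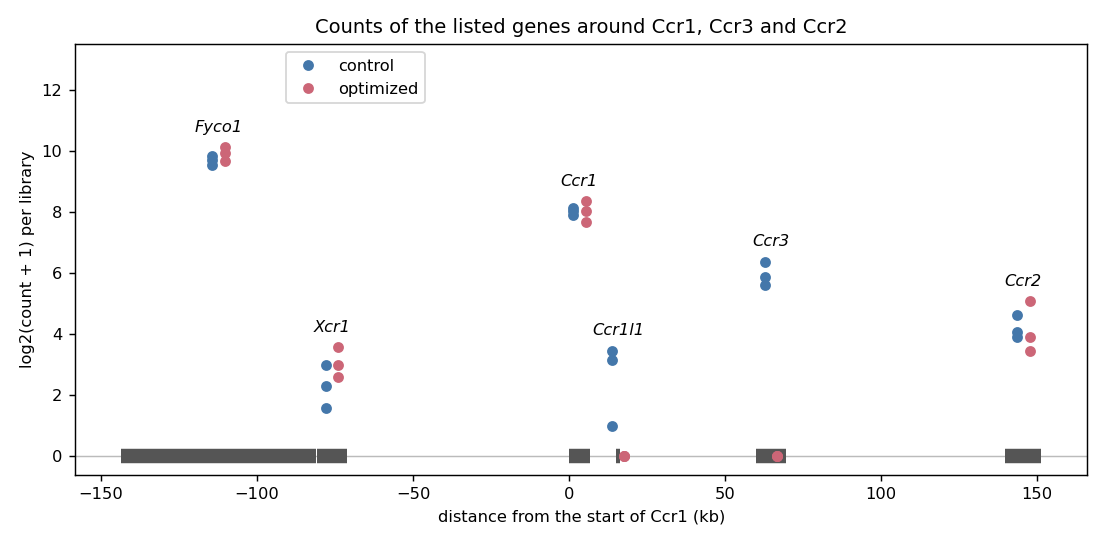
Counts of the listed genes around Ccr1, as log2(count + 1) per library, against the distance from the start of Ccr1 in kb, with gene bodies as dark bars. Ccr3 and Ccr1l1 were at 0 in the 3 optimized libraries, while the libraries of Ccr1 and Ccr2 overlapped.

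Ccrl2 is an atypical receptor that holds chemerin on the cell surface for cells that carry the signalling receptor Cmklr1. Control libraries 1 to 3 gave 488, 486 and 599 Ccrl2 counts, against 243, 327 and 250 under the optimized conditions. All optimized libraries lay below all control libraries. In CPM, Ccrl2 went from 21.0 ± 1.09 to 12.5 ± 1.26 (SD, n = 3 each). The log2 fold change was -0.75 (standard error 0.11, edgeR adjusted p-value 0.000605). The partners of Ccrl2 did not pass the test. Rarres2, which encodes chemerin, had 161 to 196 counts in control and 115 to 163 in optimized libraries (log2 fold change -0.09, 95% interval -0.44 to 0.25, adjusted p-value 0.701). Cmklr1 had 2294 to 2732 and 1820 to 2099 counts (log2 fold change -0.15, 95% interval -0.37 to 0.07, adjusted p-value 0.297). The intervals of both exclude a fall as large as that of Ccrl2. Ccrl2 lies on chromosome 9 from 110883554 to 110886591, far from the cluster of Ccr1. Its neighbour Lrrfip2 was also lower (log2 fold change -0.50, adjusted p-value 0.00725), while Ltf, on the other side, was the gene that was high in optimized library 1 alone. In that library Ccrl2 had the lowest count of the 6, and without it the log2 fold change was -0.69 (adjusted p-value 0.000213).

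Cxcr3, on the X chromosome from 100775141 to 100777875, is the receptor of activated T cells for the interferon-induced chemokines Cxcl9, Cxcl10 and Cxcl11. Its counts were 31, 41 and 34 in control libraries 1 to 3 against 35, 18 and 25 under the optimized conditions. The groups overlapped, with the highest CPM of the optimized group in library 1. The log2 fold change was -0.24 (standard error 0.34, 95% interval -0.99 to 0.52, edgeR adjusted p-value 0.657). Of the 6 T and NK cell genes, Cd3e, Cd3g and Cd8a were at 0 in all libraries, Cd3d and Ncr1 had at most 3 counts, and Klrb1c, a gene of NK cells, gave 0, 0 and 4 counts in control libraries 1 to 3 against 10, 14 and 2 under the optimized conditions. The 6 summed to at most 0.596 CPM, and their part in the Cxcr3 counts was not tested. Of the ligands of Cxcr3, Cxcl9 went from 62, 79 and 117 counts to 2, 3 and 8, and Cxcl10 from 848 to 1389 counts in control to 258 to 271 in optimized libraries. Both fell (adjusted p-values 7.63e-05 and 6.2e-06), and Cxcl11, with 15 to 23 counts in every library, was not called (log2 fold change 0.43, 95% interval -0.29 to 1.14).

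Ccr7, which leads dendritic cells and lymphocytes to lymph nodes, had 0 counts in all 6 libraries. A count of 0 allows up to 3 counts, or 0.110 to 0.145 CPM per library, by counting error alone. Its ligands Ccl19 and Ccl21a were also at 0 in every library. Such rows were common, with 17047 of the 41079 listed genes at 0 in all libraries. Ccr7 lies on chromosome 11 from 99035022 to 99045911.

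Levels of different receptors were compared per transcript length, as the authors' FPKM. In control cultures the order was Cxcr4 with 26.6 ± 3.71 FPKM, Ccrl2 with 9.49 ± 0.328, Ccr1 with 3.74 ± 0.198, Cxcr3 with 0.902 ± 0.166, Ccr3 with 0.720 ± 0.128, Ackr3 with 0.207 ± 0.101 and Ccr2 with 0.153 ± 0.0248 (SD, n = 3 each). Cxcr3 and Ccr3 overlapped, as did Ackr3 and Ccr2, while the other neighbours in this order did not. In optimized cultures Cxcr4 had 64.9 ± 0.246 FPKM, Ccrl2 5.12 ± 0.292 and Ccr1 3.98 ± 1.11 (SD, n = 3 each). Here Ccrl2 and Ccr1 overlapped, and so did Cxcr3, Ackr3 and Ccr2, each with its neighbour, between 0.0958 and 0.982 FPKM. Ccr3 and Ccr7 were listed at 0. Cxcr4 thus made up 63.4% ± 3.95 of the summed FPKM of the 8 receptors in control and 86.2% ± 1.30 in optimized libraries, and Ccrl2 22.8% ± 2.65 and 6.80% ± 0.455 (SD, n = 3 each).

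Among the 24 chemokine receptors examined, Cx3cr1 had the highest level, with 80.4 ± 3.09 FPKM in control and 325 ± 12.1 FPKM in optimized cultures (SD, n = 3 each). The summed FPKM of the 24 was 123 to 124 in the control libraries and 387 to 410.3 in the optimized libraries. Beside the rise of Cx3cr1, the share of Cxcr4 in that sum was 21.5% ± 2.98 in control and 16.1% ± 0.496 in optimized cultures, although its own level rose. Ccrl2 went from 7.67% ± 0.272 to 1.27% ± 0.115 and Ccr1 from 3.02% ± 0.168 to 0.988% ± 0.261 (SD, n = 3 each). Of the 16 receptors examined outside the 8, 2 had enough counts for the test. Cx3cr1 rose, and Ackr4, a scavenger of Ccl19 and Ccl21, was not called (log2 fold change 0.60, 95% interval 0.12 to 1.08, adjusted p-value 0.0605). Ackr4 shares 1663 exonic bases with Acad11 on the opposite strand, so without a stated strand setting their reads cannot be told apart.

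**Figure D3:**
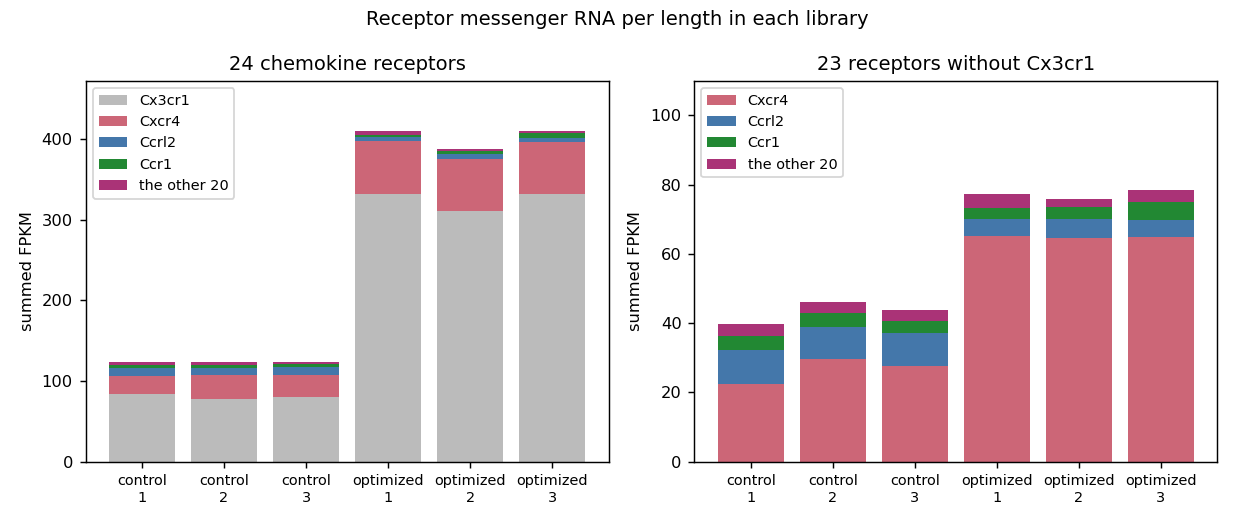
Summed FPKM of the 24 chemokine receptors in each library (left) and of the 23 without Cx3cr1 (right), split by receptor. Cx3cr1 and Cxcr4 made up most of the sum in every library, and the Ccrl2 segment was smaller in the optimized libraries.

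Among the ligands of these receptors, all that passed the test fell. Of 18 listed ligands, 15 were tested, 11 fell, 0 rose and 4 were not called, with a median log2 fold change of -1.94. Of all genes tested, 15.2% were lower and 14.7% higher. At an unadjusted p under 0.05, and by DESeq2 and limma, 0 rose as well. Some of the CC ligands are genes that the study itself picked out on these libraries, so their direction is not independent evidence. Ccl5 and Ccl9, ligands of Ccr1 and, for Ccl5, of Ccr3, had log2 fold changes of -4.81 and -4.11. The Ccr2 ligands Ccl2, Ccl7 and Ccl12 had log2 fold changes of -2.63, -1.10 and -2.73. For Ccr3, the eotaxin Ccl24 had 18 to 29 counts in control and 8 to 20 in optimized libraries and was not called (log2 fold change -0.36, 95% interval -1.23 to 0.52), and Ccl11 had at most 3 counts in a library. Falling ligands were thus found beside a receptor that fell (Ccr3) and beside receptors that were not called (Ccr1, Ccr2, Cxcr3).

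Downstream of the receptors, the 14 genes of Gi proteins and their effectors had 2 higher, 3 lower and 9 not called, and a median log2 fold change of -0.03. Over all genes tested, 14.7% were higher and 15.2% lower, so the count in this list lay near the background. Gnai2 and Gnai3, the Gi alpha subunits, were among those not called, with 95% intervals of -0.29 to 0.17 and -0.19 to 0.18. Of the gamma subunits, Gng12 rose (log2 fold change 0.50) and Gng2 fell (log2 fold change -0.72). Pik3cg, the catalytic subunit of the lipid kinase that Gi beta-gamma activates, rose (log2 fold change 0.43), and Pik3r5, its regulatory subunit, fell (log2 fold change -0.60). Rac2, a GTPase of leukocyte migration, fell as well (log2 fold change -0.84). With the FPKM values and limma, 1 gene of this list was higher and 5 were lower. Over all 14618 genes, limma on log2(FPKM + 1) called 1472 higher and 3267 lower.

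Of the 15 tested genes that end receptor signalling, 2 rose and 8 fell, with a median log2 fold change of -0.32, where 14.7% of all genes tested were higher and 15.2% lower. Arrb1 and Arrb2, the arrestins that bind phosphorylated receptors, had log2 fold changes of -0.90 and -0.32. The receptor kinases Grk2, Grk3 and Grk5 had log2 fold changes of -0.31, -0.91 and -0.42, and Grk6 was not called (log2 fold change -0.20, adjusted p-value 0.12). Rgs16, which speeds up the GTP hydrolysis of Gi proteins, rose from 41, 37 and 70 counts to 335, 520 and 433, and its log2 fold change was 3.32 (edgeR adjusted p-value 2.21e-06). Rgs2 rose too (log2 fold change 0.67), whereas Rgs1, Rgs14 and Rgs18 fell, with log2 fold changes of -0.40, -0.71 and -1.64. Itch, the ubiquitin ligase that marks Cxcr4 for degradation, was not called (log2 fold change -0.12, 95% interval -0.33 to 0.08). The number of falling genes in this list depended on which library was left out. It was 3 without control library 1, 4 without control library 2, 5 without control library 3 and 3 without optimized library 3. It stayed at 8 without optimized library 1 or 2. Over all genes, the lower calls without control libraries 1 to 3 were 1726 of 15036, 1646 of 14932 and 1705 of 14982. Without optimized library 3 they were 1787 of 15039, against 2218 of 14618 with every library.

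For each tested receptor, the genes of most similar pattern were sought among 11764 genes with a mean of at least 1 CPM, by the root mean square difference of centred log2 CPM over the 6 libraries. For Cxcr4 these were Tspan7, Serpinb2 and Ndrg2, at differences of 0.08, 0.09 and 0.11. For Ccrl2 they were St6galnac6, Pold2 and Actg1, at 0.04 to 0.05, and for Ccr1 Prkd2, Cpe and Prg4, at 0.07 to 0.08. The nearest genes to Ccr3 were Ccl5, Slamf8 and Gbp5 at 0.15 to 0.34, a distance that depends on the value added to its counts of 0. The nearest gene to Ackr3, which had only 5 to 32 counts per library, lay farther off than that of each other receptor. It was Col6a3, a collagen chain, at 0.29, followed by Plagl1 (0.29) and Igsf9b (0.32). For Ccr2, Atp1b1 (0.13), Yod1 (0.19) and Kctd1 (0.20) came first, and for Cxcr3 Dlg5 (0.07), Tanc1 (0.08) and Atxn7l1os2 (0.11). These distances describe 6 libraries in 2 groups and carry no test.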

How the data were processed

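RNA was measured by paired-end RNA-seq in 3 control and 3 optimized cultures of neonatal mouse microglia, which the study describes as biological replicates. The authors aligned the reads with HISAT2 to mm39 (GRCm39), used featureCounts, and deposited raw counts per gene without normalization. The authors also deposited FPKM values, which were found to be the counts over 1 factor per gene and 1 factor per library. Tool versions, annotation, strand setting and the handling of reads that fit more than 1 gene are not given in the sources used here. Each column was matched to its sample by name.

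Counts were analysed with edgeR 4.0.16 in R 4.3.3 (filterByExpr, TMM factors, quasi-likelihood test without further terms, Benjamini-Hochberg adjustment over 14618 genes, threshold 0.05). Standard errors were the log2 fold change divided by the square root of F, and 95% intervals used its degrees of freedom. The floor was 3 counts per library and covers counting error only, and total counts (20628148 to 27261839) set the precision of the low receptors. Ratios of 2 receptors were compared by two-sided exact permutation, with 0.5 added to each count. FPKM was used for levels between genes and, as log2(FPKM + 1) or log2(FPKM + 0.1), in limma 3.58.1, where fold changes of low genes are understated. Further alternatives were DESeq2 1.42.0, each library left out, the replicate number as a block, scaling by library size alone or by relative log expression, testing all genes with a count, a minimum of 10 counts per library, a minimum mean FPKM of 1, and 1 added to each count for the ratios. Coordinates and promoters are those of GENCODE M39 on GRCm39. On simulated counts of 14497 genes, 100 genes of each size were changed. Of these, edgeR recovered 95% at a change of 1 on the log2 scale and 100% at a change of 2. Unchanged genes made up 4.41% of its calls. These rates were not split by count, so they do not give the rate for low receptors such as Ackr3, Ccr2 and Cxcr3.

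The 8 receptors and all lists were chosen with earlier results of these data known. Genes named are the 8 receptors, the listed receptors, ligands, chemerin receptors, signalling and desensitization genes, cell type markers, neighbours within 100 kb, and the 3 genes of most similar pattern, without predicted genes. Adgre4 falls outside this rule and was named after its values were seen, as was Acad11 for its exon overlap. Proteins were not used here, and some genes of the lists and of the chromosome 9 cluster are not reported here.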

Additional observations from a re-analysis of the deposited data

How the results depend on the processing

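The calls of Cxcr4 and Ccrl2 held under all 15 alternatives, with log2 fold changes of 1.26 to 1.49 and of -0.88 to -0.69. Ccr3 was called lower in the 13 alternatives that tested it. With at least 10 counts in every library, and with limma and a minimum mean FPKM of 1, Ccr3 was not among the genes tested, so that 1 receptor was lower in place of 2. Ccr1, Ccr2 and Cxcr3 were called under none, with log2 fold changes from -0.01 to 0.38, from -0.40 to 0.57 and from -0.53 to 0.00. Each library left out in turn, Cxcr4 had 1.30 to 1.49, Ccrl2 -0.84 to -0.69 and Ackr3 0.72 to 1.43, with 1 receptor higher and 2 lower each time.

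With the replicate number as a block, Ackr3 passed the threshold (log2 fold change 1.13, adjusted p-value 0.0495), so that 2 receptors were higher, and no other of the 8 changed its call. The block moved the calls over all genes from 2142 to 2401 higher and from 2218 to 2523 lower. Deviations of same-numbered libraries from their group means correlated with r = 0.46, -0.05 and 0.27 for numbers 1, 2 and 3 over 12048 genes, and not every library correlated best with its own number. With 3 libraries per group, these correlations depend on each other and cannot decide whether same-numbered libraries were paired. The main test used no block, and the call of Ackr3 depends on that choice.

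Library size alone moved the median log2 fold change of all genes by -0.13 and the share of higher genes among those called from 49.1% to 32.3%, and limma on FPKM gave 31.1%. With a minimum mean FPKM of 1 it was 28.4%, with 1176 higher. With each library left out, 1603 to 2591 genes were higher and 1646 to 2643 lower.

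The log2 ratio of Ccr1 to Ccr3 differed by 5.95 with 1 added to each count, and by 6.77 to 7.12 with each library left out. The uncalled ratio of Cxcr4 to Ackr3 ranged from -0.15 to 0.89 and reversed without control library 1 (-0.06) and optimized library 2 (-0.15). That of Ccr2 to Ccr1 ranged from -0.73 to 0.46 and reversed without control library 3 (0.10), optimized library 2 (0.06) and optimized library 3 (0.46). Of 150 counts over the other lists, 136 were within 1.5 times of the reported count. The 14 others include the counts given for desensitization genes and effectors, 2 other receptors higher without optimized library 1, 1 other receptor (Ccr1l1, adjusted p-value 0.0237) lower with no filter on low counts in place of 0, and Cmklr1 lower without that library. The causes were not tested. Depth limits Ackr3, Ccr2 and Cxcr3, with 5 to 41 counts per library.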
